A study of Mus musculus with 2 samples.

Results

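The STAT transcription factors were followed in RNA from sorted regulatory T (Treg) cells that lacked or kept the deubiquitinase USP21. The 6 genes described, *Stat2*, *Stat3*, *Stat4*, *Stat5a*, *Stat5b* and *Stat6*, were taken by symbol from the 16830 genes of the expression table, and all 6 passed the minimum mean of 1 FPKM (fragments scaled to transcript length and library size). USP21-ΔTreg cells came from C57BL/6 mice that carried Foxp3-YFP-Cre and floxed *Usp21* alleles, and WT Treg cells from C57BL/6 mice with Foxp3-YFP-Cre alone. Mice of both genotypes were 6 months old, and CD4+CD25hiYFP+ cells were sorted from spleen and lymph nodes. Cre and YFP are expressed from the *Foxp3* locus, so deletion and sorting both depend on its activity. Each genotype had 1 library, and the number of mice behind each was not given in the sources used here. No test was therefore possible, and differences are between these libraries and not between replicated genotypes.

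STAT proteins wait in the cytoplasm as latent transcription factors. A cytokine brings its receptor chains together, the JAK kinases bound to those chains phosphorylate the receptor and then a tyrosine of the STAT, and STAT dimers enter the nucleus and bind DNA. STAT5A and STAT5B carry the IL-2 signal that Treg cells depend on, STAT3 serves IL-6, IL-10 and IL-23, STAT4 serves IL-12, STAT6 serves IL-4, and STAT2 acts with IRF9 in the ISGF3 complex of type I interferon. Most STAT dimers bind the GAS element, TTCNNNGAA, whereas ISGF3 binds repeats of GAAA spaced as in GAAANNGAAA.

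Promoters of STAT genes and of STAT target genes are shown to illustrate these elements, and were picked for holding a match. Sequences are from RefSeq on GRCm38.p6, a build of the same assembly as mm10, and each promoter runs from 250 bases before to 50 bases after an annotated start. Both strands were searched, and the matched letters are in capitals. GAAANNGAAA was present in 3.44% and TTCNNNGAA in 8.30% of all 32851 promoters. All 6 STAT genes matched the promoter table, with 9 promoters between them. GAAANNGAAA was present in 2 of these, at *Stat2* (chr10:128270248-128270347, plus strand, 222 bases before the start, read on the opposite strand) and at the downstream start of *Stat4* (chr1:52008113-52008212, plus strand, 97 bases before the start). TTCNNNGAA was in none of the 9, from which nothing is drawn at so few promoters. For comparison, the promoter of the interferon-induced ubiquitin-like gene *Isg15* (chr4:156200827-156200926, minus strand) is shown with 3 overlapping matches to GAAANNGAAA.
Stat2: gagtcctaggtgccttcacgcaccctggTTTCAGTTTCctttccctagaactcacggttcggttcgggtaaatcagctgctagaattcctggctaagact
Stat4: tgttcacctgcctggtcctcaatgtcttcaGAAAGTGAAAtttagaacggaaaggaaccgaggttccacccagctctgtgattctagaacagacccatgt
Isg15: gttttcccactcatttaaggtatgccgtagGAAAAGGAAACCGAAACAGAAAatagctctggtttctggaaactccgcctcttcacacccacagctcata

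The GAS element is shown in 3 target genes of STAT5 or STAT3. *Cish* (chr9:107296629-107296688, plus strand) held 2 matches, the first at the annotated start and the second 11 bases after it. *Socs3* (chr11:117969451-117969550, minus strand) held 1, 154 bases before the start. The downstream promoter of *Bcl6* (chr16:23981362-23981481, minus strand) held 3. A match is a description of the letters and does not show binding.
Cish: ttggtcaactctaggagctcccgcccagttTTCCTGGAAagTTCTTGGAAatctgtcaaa
Socs3: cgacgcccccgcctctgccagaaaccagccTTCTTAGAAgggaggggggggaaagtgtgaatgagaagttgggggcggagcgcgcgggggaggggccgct
Bcl6: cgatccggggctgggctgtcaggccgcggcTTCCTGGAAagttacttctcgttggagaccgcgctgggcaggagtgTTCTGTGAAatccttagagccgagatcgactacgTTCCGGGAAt

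The libraries were similar in depth, with 23418575 fragments in genes for USP21-ΔTreg cells and 23198412 for WT Treg cells. *Usp21* itself stood at 4.56 FPKM in USP21-ΔTreg cells and 11.8 FPKM in WT Treg cells, a ratio of 0.381 on scaled counts (95% Clopper-Pearson interval 0.321 to 0.451). All such intervals cover counting error only and say nothing of variation between mice. Fold changes are given as log2 of USP21-ΔTreg over WT after adding 0.1 FPKM to each, which understates differences of low genes. Their median over the 10948 genes with a mean of at least 1 FPKM was 0.20, whereas on scaled counts it was −0.01, and values relative to the median are therefore given as well. The limit for calling a gene higher or lower was 2-fold, which 6.20% of these genes reached as lower and 7.78% as higher on FPKM. On scaled counts the shares were 7.93% lower and 4.34% higher.

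The STAT family did not move as a block. Of the 6 genes, *Stat2* alone was lower by this limit in USP21-ΔTreg cells, none was higher and 5 lay between. The log2 fold changes spanned from −1.58 for *Stat2* to 0.40 for *Stat5b*, with a median of −0.47 on FPKM and −0.54 on scaled counts. Each of the 6 genes rested on at least 1666 fragments in each library, so the counting intervals were narrow. Fewer cells that express a gene and less of its RNA per cell cannot be told apart in such bulk samples.

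**Figure D1:**
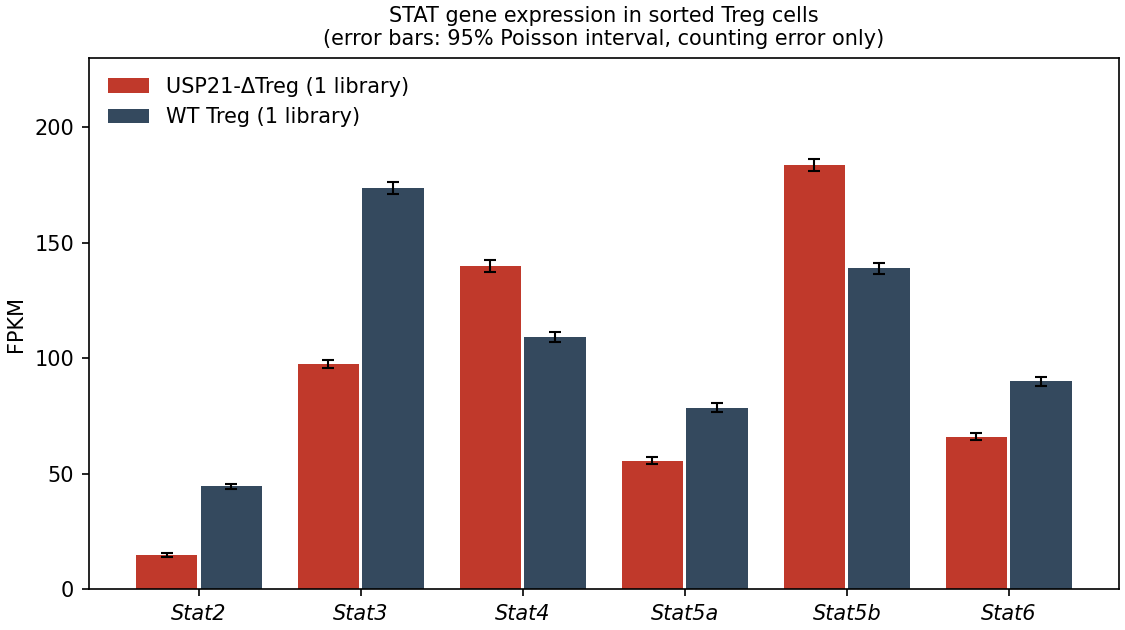
FPKM of each STAT gene (vertical axis) in the library of USP21-ΔTreg cells (red, left of each pair) and that of WT Treg cells (blue, right), with 95% Poisson intervals for counting error only. *Stat2* had the lowest bar in both libraries, at 14.8 FPKM in USP21-ΔTreg cells and 44.5 FPKM in WT Treg cells, and the highest bar was *Stat5b* in USP21-ΔTreg cells and *Stat3* in WT Treg cells.

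*Stat2*, the interferon-restricted member of the family, stood at 14.8 FPKM in USP21-ΔTreg cells and 44.5 FPKM in WT Treg cells. They came from 1666 fragments in USP21-ΔTreg cells against 4973 in WT Treg cells, for a scaled count ratio of 0.299 (95% Clopper-Pearson interval 0.282 to 0.316). Its log2 fold change of −1.58 was −1.78 relative to the median of all genes and −1.74 on scaled counts, and only 2.85% of the genes kept had a lower value on FPKM. *Stat2* was ranked 5291 by FPKM in USP21-ΔTreg cells, against 1767 in WT Treg cells, among all 16830 genes. It was the least abundant of the 6 in both libraries.

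*Stat3*, which relays IL-6 and IL-10 signals and is needed for Th17 cells, stood at 97.6 FPKM in USP21-ΔTreg cells and 174 FPKM in WT Treg cells. Its log2 fold change was −0.83, short of the 2-fold limit, but −1.03 relative to the median of all genes, just past it. On scaled counts the ratio was 0.512 (95% Clopper-Pearson interval 0.500 to 0.524), from 10753 fragments in USP21-ΔTreg cells against 18723 in WT Treg cells. *Stat3* thus lay at the limit, on a side that the scale decided.

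*Stat5a* and *Stat5b* encode close paralogs that are both phosphorylated after IL-2, and their RNAs lay on opposite sides of 0. *Stat5a* stood at 55.5 FPKM in USP21-ΔTreg cells and 78.5 FPKM in WT Treg cells, a log2 fold change of −0.50 on FPKM and −0.49 on scaled counts. *Stat5b* stood at 184 FPKM in USP21-ΔTreg cells and 139 FPKM in WT Treg cells, a log2 fold change of 0.40 on FPKM, 0.21 relative to the median and 0.33 on scaled counts. Neither reached 2-fold. *Stat5b* exceeded *Stat5a* by 3.31 times in USP21-ΔTreg cells and by 1.77 times in WT Treg cells on FPKM. Of the fragments of both genes together, *Stat5b* held 81.0% in USP21-ΔTreg cells (95% Clopper-Pearson interval 80.5 to 81.5%) and 70.6% in WT Treg cells (70.0 to 71.2%). Their summed level was 239 FPKM in USP21-ΔTreg cells and 217 FPKM in WT Treg cells.

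The split between the STAT5 genes depends on how fragments common to both were assigned. Of the 50-base windows of the longest *Stat5a* transcript in GENCODE M21, 15.8% also occurred in a *Stat5b* transcript, and 11.8% of those of *Stat5b* in one of *Stat5a*. No other pair of the 6 genes shared any such window. The values of *Stat5a* and *Stat5b* are to that extent uncertain, and the effect of the shared windows on their split was not tested.

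*Stat6*, the IL-4 and IL-13 factor, stood at 66.0 FPKM in USP21-ΔTreg cells and 90.0 FPKM in WT Treg cells, with a log2 fold change of −0.45 on FPKM and −0.59 on scaled counts. *Stat4*, the IL-12 factor of Th1 cells, stood at 140 FPKM in USP21-ΔTreg cells and 109 FPKM in WT Treg cells. Its log2 fold change of 0.36 on FPKM was 0.16 relative to the median of all genes and 0.03 on scaled counts. The count ratio of *Stat4* was 1.02, with a 95% Clopper-Pearson interval of 0.991 to 1.05 that holds 1.

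**Figure D2:**
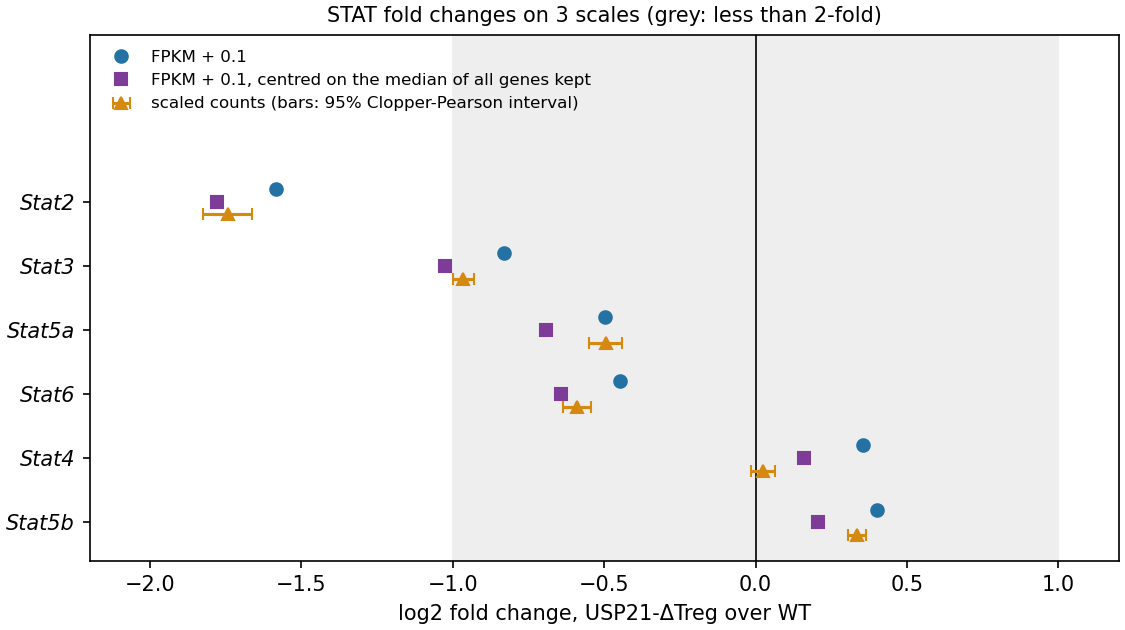
Log2 fold change (horizontal axis, USP21-ΔTreg over WT) of each STAT gene on FPKM (circles), on FPKM centred on the median of all genes kept (squares) and on scaled counts (triangles, with 95% Clopper-Pearson intervals), with less than 2-fold in grey. *Stat2* lay beyond 2-fold on each of the 3 scales, *Stat3* crossed the limit when centred (−1.03), and *Stat4* ranged from 0.03 to 0.36.

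With these shifts the order of the 6 genes described, which are not the whole family, changed at its top. By FPKM the order in USP21-ΔTreg cells was *Stat5b*, *Stat4*, *Stat3*, *Stat6*, *Stat5a* and *Stat2*, and in WT Treg cells *Stat3*, *Stat5b*, *Stat4*, *Stat6*, *Stat5a* and *Stat2*. Counting intervals of neighbours in either order did not overlap, although without replicates the spread between mice is unknown. *Stat5b* made up 32.9% of the summed STAT level of 557 FPKM in USP21-ΔTreg cells and 21.9% of 635 FPKM in WT Treg cells. *Stat3* made up 17.5% in USP21-ΔTreg cells, against 27.4% in WT Treg cells. The ratio of *Stat4* to *Stat3* was 1.43 in USP21-ΔTreg cells, against 0.628 in WT Treg cells.

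*Stat5b*, *Stat5a* and *Stat3* are neighbours on chromosome 11 of mm10, and their RNAs differed in direction across this short stretch. In the deposited table *Stat5b* spans chr11:100780730-100850585, *Stat5a* chr11:100859350-100885169 and *Stat3* chr11:100886809-100939511. GENCODE M21 places *Stat5a* on the plus strand and the other 2 on the minus strand, with 8626 bases between *Stat5b* and *Stat5a*. *Stat5a* and *Stat3* converge and their annotated ends overlap by 72 bases. Along this stretch the log2 fold changes were 0.40 for *Stat5b*, −0.50 for *Stat5a* and −0.83 for *Stat3*. *Stat6* (chr10:127642985-127666703) and *Stat2* (chr10:128270575-128292849) are both on the plus strand, and *Stat4* spans chr1:52008243-52107184. *Stat6* overlaps *Nab2* in that annotation. The methods describe stranded libraries and the sample labels a kit not described as stranded, so whether reads of overlapping genes could be told apart is not settled.

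**Figure D3:**
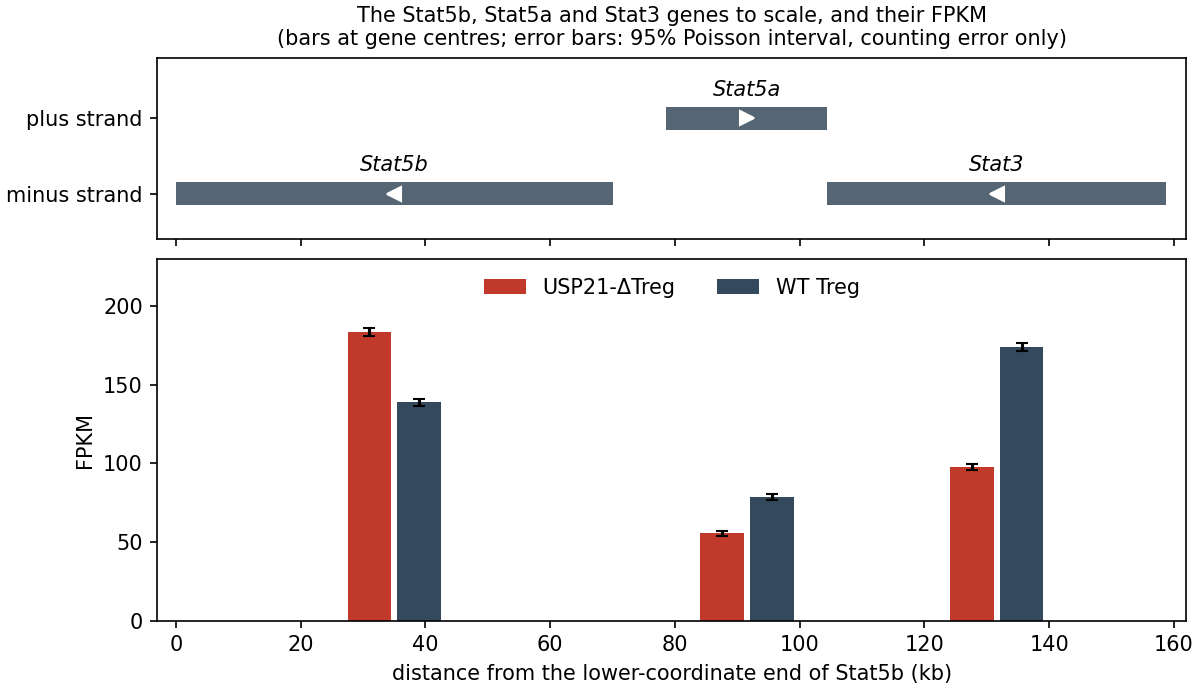
The *Stat5b*, *Stat5a* and *Stat3* genes drawn to scale by distance in kb from the lower-coordinate end of *Stat5b* (upper panel, white triangles point in the direction of transcription), and their FPKM (lower panel) in USP21-ΔTreg cells (red, left) and WT Treg cells (blue, right) with 95% Poisson intervals. *Stat5b* was at 184 and *Stat3* at 97.6 FPKM in USP21-ΔTreg cells, against 139 and 174 FPKM in WT Treg cells.

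The genes that act with the STAT proteins were grouped into 12 lists by role, written with earlier results of these libraries known. They hold 121 genes, 12 of them in more than 1 list, of which 112 had a mean of at least 1 FPKM. Of these, 49 were lower in USP21-ΔTreg cells by the 2-fold limit and 5 were higher, against the 6.20% and 7.78% of all genes. The 5 higher genes were *Il7r*, *Il9r*, *Bcl6*, *Gfi1* and *Pias3*.

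Among the JAK kinases none reached 2-fold. *Jak3*, which binds the common γ-chain, stood at 49.1 FPKM in USP21-ΔTreg cells and 97.3 FPKM in WT Treg cells, and its log2 fold change of −0.98 became −1.18 when centred on the median of all genes. *Jak1*, its partner on the IL-2 receptor, stood at 181 FPKM in USP21-ΔTreg cells and 111 FPKM in WT Treg cells (log2 fold change 0.70, or 0.42 on scaled counts). *Jak2* and *Tyk2*, used by the IL-12 and interferon receptors, had log2 fold changes of 0.19 and 0.14. *Jak2* stood at −0.19 on scaled counts, and its side of 0 depended on the scale.

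Receptors of the common γ-chain family split in direction. Of 8 measured, 3 were lower and 2 higher, against 6.20% and 7.78% of all genes. *Il2ra*, the α-chain of the IL-2 receptor by which the cells were also sorted, stood at 19.3 FPKM in USP21-ΔTreg cells and 168 FPKM in WT Treg cells. *Il2rb*, the β-chain that recruits STAT5, stood at 184 FPKM in USP21-ΔTreg cells and 649 FPKM in WT Treg cells (−1.82). *Il4ra*, which docks STAT6, had a log2 fold change of −1.44. *Il2rg*, the shared γ-chain, stood at 191 FPKM in USP21-ΔTreg cells and 198 FPKM in WT Treg cells. The higher genes were the α-chains of the IL-7 and IL-9 receptors, *Il7r* (2.02) and *Il9r* (1.28).

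Among receptors that signal through STAT3, STAT4 and STAT2, 1 gene passed the limit. Of 6 measured receptors for IL-6, IL-10, IL-23 and IL-27, *Il10ra* was lower (−1.10) and none was higher. Over all genes 6.20% were lower and 7.78% higher, so nothing is drawn from 1 gene. *Il6ra* had a log2 fold change of 0.70 and *Il6st*, the signalling chain gp130, of 0.30. Of 6 measured IL-12 and interferon receptors none reached 2-fold on FPKM. *Il12rb1*, a chain of the IL-12 and IL-23 receptors, stood at 15.5 FPKM in USP21-ΔTreg cells and 29.3 FPKM in WT Treg cells (−0.91), and *Ifnar2*, a chain of the type I interferon receptor, at 54.9 FPKM in USP21-ΔTreg cells and 34.4 FPKM in WT Treg cells (0.67). On scaled counts *Il12rb2* passed the limit at −1.04, where 7.93% of all genes were lower.

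Feedback inhibitors that STAT proteins themselves induce were among the lower genes. Of 8 SOCS genes, 4 were lower and none was higher, against 6.20% and 7.78% of all genes. *Socs1* stood at 52.0 FPKM in USP21-ΔTreg cells and 419 FPKM in WT Treg cells (−3.01), *Cish* at 23.5 FPKM in USP21-ΔTreg cells and 133 FPKM in WT Treg cells (−2.50), and *Socs3* at 24.0 FPKM in USP21-ΔTreg cells and 108 FPKM in WT Treg cells (−2.17). *Socs2* was the other lower gene (−1.67). *Socs5*, in contrast, had a log2 fold change of 1.00 just short of the limit, or 0.72 on scaled counts. *Socs6* and *Socs4* had ones of 0.18 and 0.12 on FPKM but −0.18 and −0.31 on scaled counts. Their side of 0 thus depended on the scale.

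Other inhibitors and partners lay mostly within 2-fold. Of 10 PIAS proteins and phosphatases, *Ptpn1*, a phosphatase of JAK2 and TYK2, was lower (−1.10) and *Pias3*, which was named for binding STAT3, was higher (1.04), while 8 lay between. Over all genes 6.20% were lower and 7.78% higher, so nothing is drawn from 1 gene each way. *Pias3* stood at 10.7 FPKM in USP21-ΔTreg cells and 5.14 FPKM in WT Treg cells, and was at 0.97 on scaled counts. Of 10 nuclear partners and coactivators, *Kpna1*, an importin of STAT proteins, was the only lower gene (−1.47), against 6.20% of all genes. *Irf9*, which completes ISGF3 with STAT2, stood at 53.7 FPKM in USP21-ΔTreg cells and 89.6 FPKM in WT Treg cells (−0.74).

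Genes that STAT proteins are known to switch on held most of the lower values. Of 19 STAT5 targets, 14 were lower and none was higher, against 6.20% and 7.78% of all genes. The median was −1.82, against 0.20 over all genes. This list was written with earlier results known, and its SOCS and IL-2 receptor genes were already counted above. *Lta* (−4.15), which encodes a cytokine of the TNF family, *Gzmb* (−4.06) and *Il2ra* (−3.12) had the lowest values, and *Prf1* (0.48), *Mcl1* (−0.15) and *Pim1* (−0.61) the highest. The summed level of the list was 1086 FPKM in USP21-ΔTreg cells and 3058 FPKM in WT Treg cells. That of *Stat5a* and *Stat5b* was 239 FPKM in USP21-ΔTreg cells and 217 FPKM in WT Treg cells. These are RNA levels, and whether those of the targets and of the STAT5 genes are linked was not tested. *Foxp3*, itself a target of STAT5, had a log2 fold change of −0.73. Of the 14 listed genes found in the promoter table, 5 held TTCNNNGAA, namely *Cish*, *Foxp3*, *Gzmb*, *Lta* and *Socs3*. It was in 5 of 19 promoters, or 26.3%, against 8.30% of all promoters. The genes were listed as known targets, so this share says nothing of these libraries.

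Of 25 targets of ISGF3, 20 were lower and none was higher, against 6.20% and 7.78% of all genes, with a median of −2.21. *Oas2*, an antiviral synthetase, had 15 fragments in USP21-ΔTreg cells, against 629 in WT Treg cells (−4.69). *Isg15* stood at 12.5 FPKM in USP21-ΔTreg cells and 174 FPKM in WT Treg cells (−3.79), and *Oasl2* had a log2 fold change of −3.65. The highest values were those of *Ifit2* (0.25, or −0.15 on scaled counts), *Eif2ak2* (−0.38) and *Oas1a* (−0.49). Of 20 promoters of 18 of these genes, 10 held GAAANNGAAA, against 3.44% of all promoters. Known ISGF3 targets were listed, so that share too says nothing of these libraries. Of the 2 STAT genes with this element, *Stat2* was lower and *Stat4* was not, from which nothing is drawn.

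Of the targets of STAT3, STAT6 and STAT4, some in each list were lower, and 1 in each of the first 2 lists was higher. Over all genes 6.20% were lower and 7.78% higher. Of 13 measured STAT3 targets, 4 were lower, namely *Socs3*, *Bcl3* (−1.86), *Batf* (−1.55) and *Junb* (−1.35). *Bcl6*, a repressor that STAT3 induces and STAT5 restrains, was higher, with 14.0 FPKM in USP21-ΔTreg cells and 4.78 FPKM in WT Treg cells (1.53). *Rora*, a nuclear receptor, had a log2 fold change of 0.47, and the median of this list was −0.19. Of 8 measured STAT6 targets, 5 were lower, namely *Socs1*, *Il4ra*, *Ccr4* (−1.27), *Ccr8* (−1.18) and *Xbp1* (−1.15), *Gfi1* was higher (1.26), *Gata3* was at −0.22, and the median was −1.17. Of 8 measured STAT4 targets, 5 were lower, namely *Gadd45g* (−4.37), *Map3k8* (−1.99), *Furin* (−1.87), *Ifng* (−1.15) and *Tbx21* (−1.02), none was higher, and the median was −1.09. On scaled counts 6 of the 8 were lower. The IL-18 receptor genes *Il18rap* (0.96) and *Il18r1* (0.81) had the highest values.

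**Figure D4:**
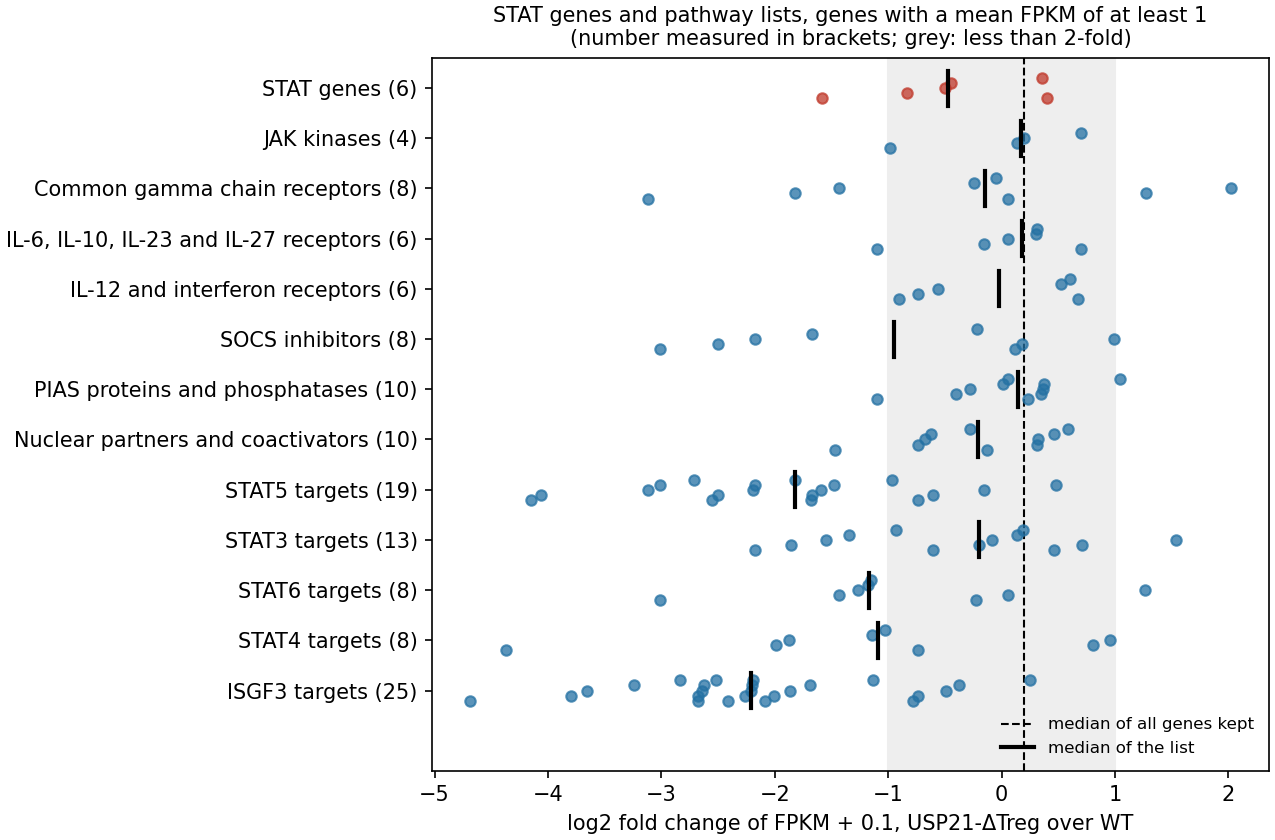
Log2 fold change (horizontal axis, USP21-ΔTreg over WT, FPKM + 0.1) of the 6 STAT genes described (red) and of each measured gene of the 12 pathway lists (blue). Black bars show the median of each list, the dashed line that of all genes kept (0.20), and grey less than 2-fold. Medians were −2.21 for ISGF3 targets and −1.82 for STAT5 targets, against −0.47 for the STAT genes and 0.17 for the JAK kinases.

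Of the 5 Treg cell markers, 2 were lower, *Il2ra* and the co-stimulatory receptor gene *Tnfrsf18* (−1.39), none was higher and the median was −0.73. For this and the marker sets below, the shares over all genes were 6.20% lower and 7.78% higher. *Foxp3* stood at −0.73, *Ctla4* at 0.04 and *Ikzf2* at 0.24. On scaled counts *Foxp3* was at −0.86, *Ctla4* at −0.34 and *Ikzf2* at −0.23, so the side of 0 of *Ctla4* and *Ikzf2* depended on the scale. The summed level of the list was 1145 FPKM in USP21-ΔTreg cells and 1796 FPKM in WT Treg cells. Markers of T cells in general, which Treg cells share, and markers of other cells moved between the libraries as well. The T cell markers *Cd3e*, *Cd3g*, *Cd4* and *Lck* were present in both, with summed levels of 1012 FPKM in USP21-ΔTreg cells and 606 FPKM in WT Treg cells. Of these 4, *Cd3g* alone was higher (1.16, or 0.92 on scaled counts), and their median was 0.67, against 0.20 over all genes. Of 6 B cell markers 4 were measured and all 4 were higher, against 7.78% of all genes. Summed over all 6, their levels were 25.8 FPKM in USP21-ΔTreg cells and 10.4 FPKM in WT Treg cells. This sum and those below also hold members under a mean of 1 FPKM. Of 7 CD8 T and NK cell markers 5 were measured and 2 were higher, against 7.78% of all genes. Their summed levels were 42.8 FPKM in USP21-ΔTreg cells and 13.5 FPKM in WT Treg cells. Of 7 myeloid markers present 4 were measured and 2 were higher, against 7.78% of all genes. On scaled counts only 1 of them was higher, against 4.34% of all genes. Their summed levels were 51.1 FPKM in USP21-ΔTreg cells and 25.3 FPKM in WT Treg cells. Of 7 erythroid markers present 5 were measured, with 3 higher and 2 lower, against 7.78% and 6.20% of all genes. Their summed levels were 96.1 FPKM in USP21-ΔTreg cells and 34.2 FPKM in WT Treg cells. None of these markers was at 0 in either library. Cells other than Treg cells also express STAT genes, and their part in the STAT values was not tested.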

How the data were processed

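RNA from CD4+CD25hiYFP+ Treg cells of both genotypes was sequenced, and per the labels the reads were aligned to mm10 by TopHat2 2.0.9 and quantified by the authors in Cufflinks 2.1.1. The deposited FPKM values are fragments scaled by the authors to transcript length and library size. The estimated counts deposited beside them are scaled between libraries, so they are not raw counts. The commonest value above 0 was taken as 1 fragment (0.918 in USP21-ΔTreg cells, 1.03 in WT Treg cells), and 97.2% of the values above 0 in each library were then whole within 0.02. Labels and methods differ on RNA isolation (Trizol or RNeasy) and on strandedness of the kit.

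Ratios, intervals and motif matches were computed in pandas 2.3.3, numpy 2.4.6 and scipy 1.17.1 under Python 3.11.15, plots were drawn in matplotlib 3.10.9, and steps were tested on simulated data. The pseudocount was 0.1 FPKM, the minimum mean 1 FPKM and the limit 2-fold. Members and lists were chosen with earlier results of these data known. Named were the 6 STAT genes described, all JAK genes, *Usp21*, *Foxp3* and up to 3 highest and 3 lowest members of each list. *Bcl6* and *Isg15* were among these. *Il2rg*, the Treg cell markers, *Socs2*, *Junb*, *Ccr8*, *Xbp1*, *Ifng*, *Tbx21* and the sets named for a promoter match were chosen after their values were seen. A further row of the STAT family and a member of a list are not reported here by name.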

Additional observations from a re-analysis of the deposited data

How the results depend on the processing

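With 1 library per genotype, depth limits little for the STAT genes and replication limits all of it, since no library could be left out and no paired analysis was possible because each group holds 1 sample. Adding 1 or 0.01 FPKM, dropping the filter or asking for a mean of at least 5 FPKM moved none of the 6 STAT fold changes by more than its counting interval. Centred on the median of all genes, the log2 fold changes were −1.78 for *Stat2*, −1.03 for *Stat3*, −0.69 for *Stat5a*, −0.64 for *Stat6*, 0.16 for *Stat4* and 0.21 for *Stat5b*, and 2 STAT genes were then at least 2-fold apart. After upper quartile scaling they were −0.89 for *Stat3*, −0.56 for *Stat5a*, −0.51 for *Stat6*, 0.29 for *Stat4* and 0.34 for *Stat5b*. On scaled counts they were −1.74 for *Stat2*, −0.97 for *Stat3*, −0.59 for *Stat6*, 0.026 for *Stat4* and 0.33 for *Stat5b*. At a limit of 1.5-fold 2 STAT genes were apart, and at 3-fold 0, although *Stat2* lay just short of it at −1.58 and was past it with 0.01 FPKM added (−1.59), after upper quartile scaling (−1.65), when centred on the median (−1.78) and on scaled counts (−1.74). None of the 6 changed sides of 0 under any alternative. Of the 112 pathway genes, 3 were higher with 1 FPKM added and 14 at 1.5-fold, against 5 in the reported values, and the number of lower genes stayed within 1.5 times in each alternative but the 3-fold limit, which was applied to the STAT genes alone. Of the counts for single lists, 171 of the values under alternatives stayed within 1.5 times of the reported count and 21 did not, 10 of them at the 1.5-fold limit. The causes of these differences were not tested.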

Other observations

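Target genes were also grouped by their promoters. The 10 ISGF3 targets with GAAANNGAAA in a listed promoter had a median log2 fold change of −2.24, with 7 past 2-fold as lower in USP21-ΔTreg cells, and the 8 genes without it had one of −2.05 with 6 lower. Among STAT5 targets the 5 genes with TTCNNNGAA had a median of −2.50 and the 9 without it one of −1.47. For the targets of STAT3 and STAT4 the order was the opposite. Medians were −0.32 for 2 STAT3 targets with it and −0.77 for 8 without, and −0.74 for 3 STAT4 targets with it and −1.45 for 4 without. The 1 STAT6 target with it, *Il4*, was at 0.06 on 22 fragments in each library, too few to read, and the 7 without had a median of −1.18. No other spacing of this element was searched. All these groups were formed after the values were seen, are small and were not tested.

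Of the 6 STAT genes described, all but *Stat2* were ranked within the first 1339 of 16830 genes by FPKM in both libraries.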
